A study of Mus musculus with 6 samples.

Results

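Id1, Id2, Id3 and Id4 encode the inhibitor of DNA binding (ID) proteins, and Smad6, Smad9 and Atoh8 are further genes known to be induced by bone morphogenetic protein (BMP) signalling. These 7 genes of the 51912 in the expression table are described here in B16F10, a pigmented mouse melanoma cell line, with and without a knockout of the gene for annexin A10, a member of a family of proteins that bind membranes when calcium rises. RNA of 3 wild-type libraries (WT 1, 2 and 3) and 3 libraries of genotype ANXA10-/- (A10KO 1, 13 and 14) was sequenced, and the labels give no treatment or time point. The labels do not say whether the numbers stand for clones, cultures or preparations, so the replicate error behind each p-value is that of these libraries and may be technical. The genes were chosen by name with their values in A10KO and WT already known. Their differences between the groups are therefore given as a description, with no p-value.

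BMP ligands bind pairs of type I and type II receptor kinases, which phosphorylate SMAD1, SMAD5 and SMAD9 (also called SMAD8). These enter the nucleus with SMAD4 and induce, among other genes, those for the ID proteins and for SMAD6, which feeds back to inhibit the pathway. ID proteins have a helix-loop-helix domain but no DNA-binding region, and they bind the E proteins TCF3, TCF4 and TCF12 and keep them from DNA. In melanocytic cells ID proteins are known for holding back differentiation and cell-cycle exit.

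The promoters are shown because SMAD complexes are known to act through short DNA motifs. The part of these motifs in the levels of the 7 genes was not tested. The set of RefSeq promoters used here (build GRCm38.p6) held 6 of the 7 genes and had no entry for Id1. The window ran from 250 bases before to 10 after the start of transcription that RefSeq gives, and 3 motifs were searched on both strands. They were GTCTAGAC, a palindromic SMAD-binding element, GTCTG, a shorter SMAD-binding element that reads CAGAC on the other strand, and GGCGCC, a GC-rich element bound by SMAD1 and SMAD5. No matches of different motifs overlapped in these windows. GENCODE begins Id2 1048 bases and Id3 325 bases upstream of the RefSeq start, so that 171 and 260 of the 260 bases of their windows lie in exons there, and these windows are given by their matches only. For Smad6, Smad9 and Atoh8 both annotations have the same start, and for Id4 that of GENCODE lies 112 bases downstream. The promoters below, of the 2 genes with RNA in these cells, a match and the same start in both annotations, are written 5′ to 3′ on the strand of the gene, with matches in capitals.
Smad6 (chr9:64022050-64022309, minus strand): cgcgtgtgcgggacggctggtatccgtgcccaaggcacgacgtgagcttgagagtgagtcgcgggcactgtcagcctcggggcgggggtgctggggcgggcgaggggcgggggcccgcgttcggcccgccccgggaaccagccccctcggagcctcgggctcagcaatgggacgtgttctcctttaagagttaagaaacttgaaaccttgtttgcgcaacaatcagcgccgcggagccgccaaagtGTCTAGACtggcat
Smad9 (chr3:54755332-54755591, plus strand): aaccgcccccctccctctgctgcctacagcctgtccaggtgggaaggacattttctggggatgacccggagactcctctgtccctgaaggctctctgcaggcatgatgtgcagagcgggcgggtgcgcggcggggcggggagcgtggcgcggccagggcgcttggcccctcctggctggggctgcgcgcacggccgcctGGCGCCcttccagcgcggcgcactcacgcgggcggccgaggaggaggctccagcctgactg

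GTCTAGAC was found in the Smad6 promoter alone of the 6, beginning 4 bases before the RefSeq start, and in 0.177% of all 32851 promoter windows. GTCTG or CAGAC was found in the Id3 promoter alone of the 6, beginning 167 and 68 bases before that start, against 44.0% of all windows. GGCGCC lay in the promoters of Id2, Smad9 and Id4, beginning 231, 51 and 148 bases before it, against 9.96% of all windows. The Atoh8 promoter held none of the motifs. The 6 windows had a GC content of 61.5% to 75.0%, where the median window had 52.3%, and Id4, whose RNA was listed at 0, also held a match. These matches are a description of the letters in the windows and do not show binding.

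Levels are given in TPM, a unit of transcripts, which correct for the length of the transcript and the size of the library, so genes can be compared. The depth of the libraries is unknown. The columns summed to 969834 to 985045 TPM, and 11889 to 12236 genes per library reached 1 TPM. Anxa10 was at 0 TPM in WT and A10KO libraries alike, so it gave no check of the labels. All 7 melanocyte markers (Tyr, Tyrp1, Dct, Pmel, Mlana, Mitf and Sox10) were present, with a summed level of 8913 to 10020 TPM in WT and 9410 to 11250 in A10KO. Mitochondrially encoded transcripts took 6.32% to 6.56% of the TPM in WT and 7.93%, 14.7% and 7.37% in A10KO 1, 13 and 14.

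Id3, Id2 and Id1 were higher in every A10KO library than in any WT library, and Id4 was listed at 0 throughout. Id3 (ENSMUSG00000007872, GRCm38 chromosome 4, 136143497 to 136145755, plus strand) stood at 56.28, 34.86 and 48.02 TPM in WT 1, 2 and 3 and at 266.27, 332.33 and 285.34 TPM in A10KO 1, 13 and 14. The lowest A10KO library was 4.73 times the highest WT library, the widest gap among the 7 genes. The ratio of mean TPM was 6.35, and the log2 change of log2(TPM + 1), A10KO minus WT, was 2.66 (SE 0.19). That scale understates the change of low genes.

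Id2 (ENSMUSG00000020644, chromosome 12, 25093799 to 25097140, minus strand) stood at 73.19, 47.51 and 64.92 TPM in WT and at 207.16, 331.22 and 295.88 in A10KO. A10KO 1 was the lowest of its group, and it still lay 2.83 times above the highest WT library. The ratio of mean TPM was 4.49 and the log2 change 2.15 (SE 0.22). Id1 (ENSMUSG00000042745, chromosome 2, 152736251 to 152737410, plus strand), an ID gene often used as a readout of BMP signalling, stood at 12.66, 13.73 and 13.83 TPM in WT and at 24.06, 34.45 and 31.76 in A10KO. Its groups did not overlap either, but the gap was the narrowest of the 6 genes, 1.74-fold between the nearest libraries. The ratio of mean TPM was 2.24 and the log2 change 1.10 (SE 0.17). Id4 (ENSMUSG00000021379, chromosome 13, 48261228 to 48266026, plus strand) was listed at 0 TPM in all 6 libraries, as was A330033J07Rik, an antisense gene that overlaps it.

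SMAD6 is an inhibitory SMAD that dampens BMP signalling. Smad6 (ENSMUSG00000036867, chromosome 9, 63953076 to 64022059, minus strand) stood at 5.62, 5.86 and 4.66 TPM in WT and at 16.89, 12.25 and 21.21 in A10KO. The groups did not overlap, with 2.09-fold between the nearest libraries, a ratio of mean TPM of 3.12 and a log2 change of 1.45 (SE 0.23). Smad7, the other inhibitory SMAD gene, which dampens both BMP and TGF-beta signalling, stood at 3.17, 5.64 and 4.16 TPM in WT and 5.15, 4.49 and 3.82 in A10KO, so its groups overlapped. The Smad6 to Smad7 ratio within a library was 1.31 ± 0.402 in WT and 3.85 ± 1.497 in A10KO (SD over 3 libraries each).

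SMAD9 is the BMP-activated SMAD whose gene is itself a BMP target. Smad9 (ENSMUSG00000027796, chromosome 3, 54755582 to 54801257, plus strand) was the lowest of the genes with RNA, at 1.13, 1.16 and 1.13 TPM in WT and 3.27, 3.65 and 3.98 in A10KO. The groups did not overlap and lay 2.82-fold apart at the nearest libraries. The ratio of mean TPM was 3.19 and the log2 change 1.11 (SE 0.19). At this level the log2 change depends on the pseudocount, and it was 1.59 with 0.1 added in place of 1 and 0.49 with 5 added. Smad1 and Smad5, the other BMP-activated SMAD genes, overlapped between the groups, at 5.71, 6.67 and 5.60 TPM (Smad1) and 14.21, 16.12 and 13.70 TPM (Smad5) in WT. In A10KO they stood at 4.91, 7.27 and 4.88 TPM for Smad1 and 10.85, 11.42 and 14.62 TPM for Smad5. The summed level of the 3 genes was 21.8 ± 1.88 TPM in WT and 21.6 ± 2.31 in A10KO, and Smad9 made up 5.25% ± 0.359 of it in WT and 16.8% ± 0.437 in A10KO (SD over 3 libraries each). Smad9 was thus a small part of the pool in both groups.

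ATOH8 is a basic helix-loop-helix transcription factor whose gene is known to respond to BMP signalling. Atoh8 (ENSMUSG00000037621, chromosome 6, 72206177 to 72235577, minus strand) stood at 24.05, 11.49 and 19.97 TPM in WT and at 110.23, 54.05 and 63.37 in A10KO. It varied most within both groups, with a coefficient of variation of 34.6% in WT and 39.7% in A10KO. The nearest libraries lay 2.25-fold apart, the ratio of mean TPM was 4.10 and the log2 change 1.97 (SE 0.33).

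**Figure D1:**
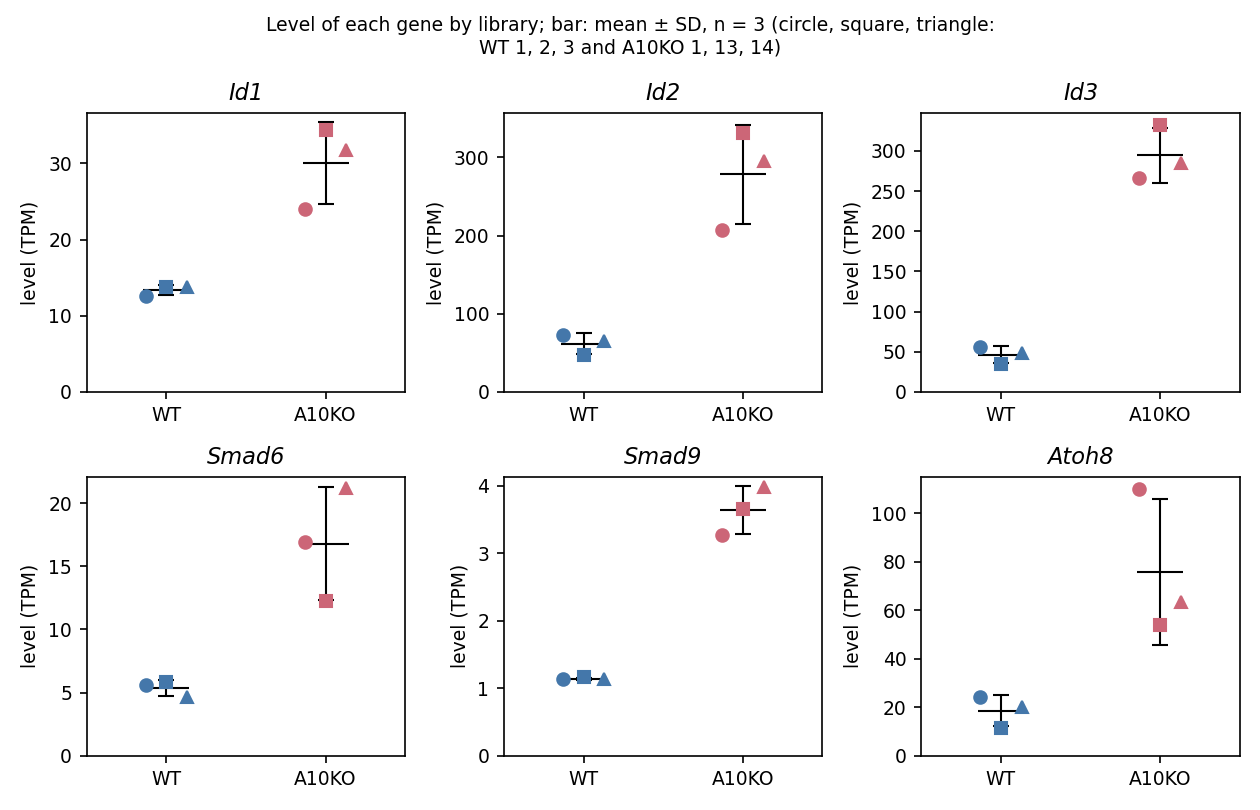
Level in TPM (vertical axis, linear from 0) of the 6 genes with RNA in these cells, in each WT and A10KO library, with the mean and SD of 3 libraries. In all 6 panels every A10KO point lies above every WT point, from 1.74-fold apart at the nearest libraries for Id1 to 4.73-fold for Id3.

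Set against all genes, 6 of the 7 passed the filter of at least 1 TPM in at least 3 libraries, and Id4 did not. By limma with Benjamini-Hochberg adjustment at a threshold of 0.05, 2 of the 6, Id3 and Id2, were called higher, as were 0.0166% of the 12068 genes tested. Groups that did not overlap, with A10KO higher, were seen for 6 of the 6 and for 5.61% of all tested genes. Since the 7 genes were picked with this contrast in view, neither count is read as a result. By log2 change Id3 ranked 3, Id2 10, Atoh8 15, Smad6 33, Smad9 77 and Id1 85 among the 12068.

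Within WT the order of levels was Id2, Id3, Atoh8, Id1, Smad6 and Smad9, with Id4 at 0. Id2 lay above Id3 in each WT library, although their ranges over the libraries overlapped, and Id1 and Atoh8 exchanged places in WT 2. Smad6 lay below Id1 and Atoh8 and above Smad9 in every WT library. In A10KO the order was the same except that Id3 passed Id2 in A10KO 1 and 13. The mean WT level of Id2 was at percentile 81.7 of the tested genes and that of Id3 at 76.2, and in A10KO they were at 96.0 and 96.3. Smad9 was at percentile 2.7 in WT and 17.3 in A10KO.

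The A10KO libraries were not ordered alike by the 6 genes. A10KO 13 had the highest Id1, Id2 and Id3 and the lowest Smad6 and Atoh8. A10KO 1 had the lowest Id1, Id2, Id3 and Smad9 and the highest Atoh8, at 5.96 times the WT mean against 2.92 and 3.43 in A10KO 13 and 14. A10KO 14 had the highest Smad6, at 3.94 times the WT mean, and the highest Smad9. Among the WT libraries, WT 2 was the lowest for Id2, Id3 and Atoh8, at 0.768, 0.752 and 0.621 times the WT mean, but not for Id1 (1.02) or Smad6 (1.09). The A10KO library with the largest share of mitochondrial transcripts, A10KO 13, was thus highest for the ID genes and lowest for Smad6 and Atoh8, and the part of that share in this order was not tested.

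**Figure D2:**
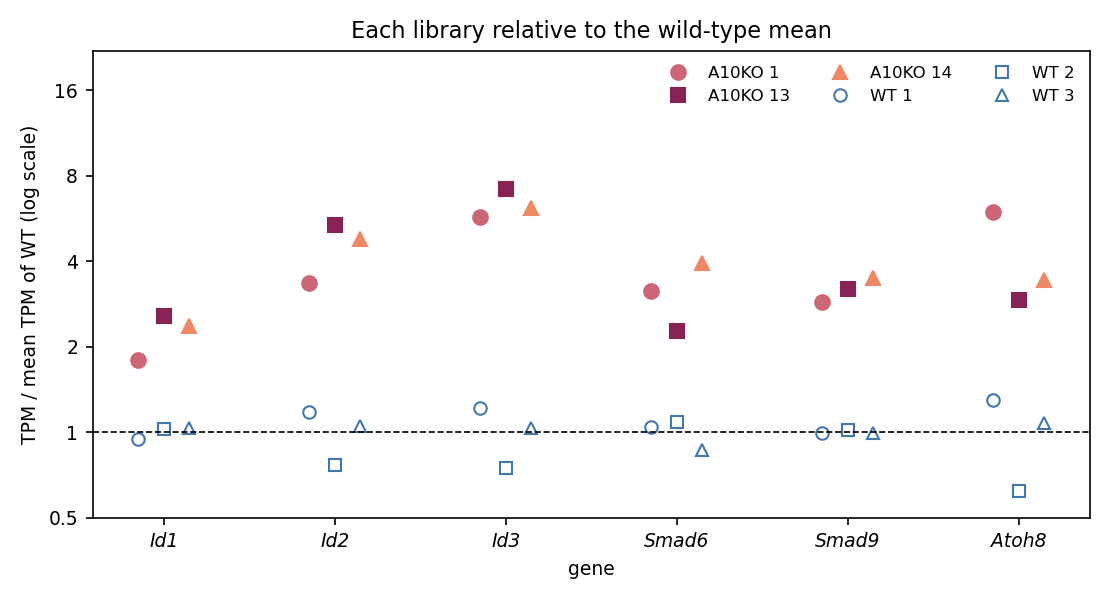
TPM in each library divided by the mean TPM of WT (vertical axis, log scale) for the 6 genes. The order of A10KO 1, 13 and 14 differs between genes, with A10KO 1 highest for Atoh8 (5.96) and lowest for Id2 (3.35) and Id3 (5.74).

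ID proteins act by binding E proteins, so the transcripts of both were summed in each library. The summed level of Id1, Id2, Id3 and Id4 was 142.1, 96.1 and 126.8 TPM in WT 1, 2 and 3 and 497.5, 698.0 and 613.0 TPM in A10KO 1, 13 and 14, a ratio of means of 4.96. The summed level of the E-protein genes Tcf3, Tcf4 and Tcf12 was 96.54, 111.3 and 95.53 TPM in WT and 98.17, 115.2 and 95.97 in A10KO. These E-protein sums overlapped between the groups. ID transcripts stood at 1.22 ± 0.318 per E-protein transcript in WT and at 5.84 ± 0.687 in A10KO (SD over 3 libraries each). WT 2 was the one library with fewer ID than E-protein transcripts, at a ratio of 0.863. These are ratios of RNA and do not give the ratio of the proteins. Id1, Id2 and Id3 had been chosen for being higher, so the higher ratio in A10KO follows from that choice.

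Within the ID sum, Id3 took a larger share in each A10KO library than in any WT library, and Id1 a smaller one. Id3 made up 39.6%, 36.3% and 37.9% of it in WT and 53.5%, 47.6% and 46.6% in A10KO. Id1 made up 8.91%, 14.3% and 10.9% in WT and 4.84%, 4.94% and 5.18% in A10KO. Id2 made up 50.7% ± 1.12 in WT and 45.8% ± 3.61 in A10KO (SD over 3 libraries each).

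**Figure D3:**
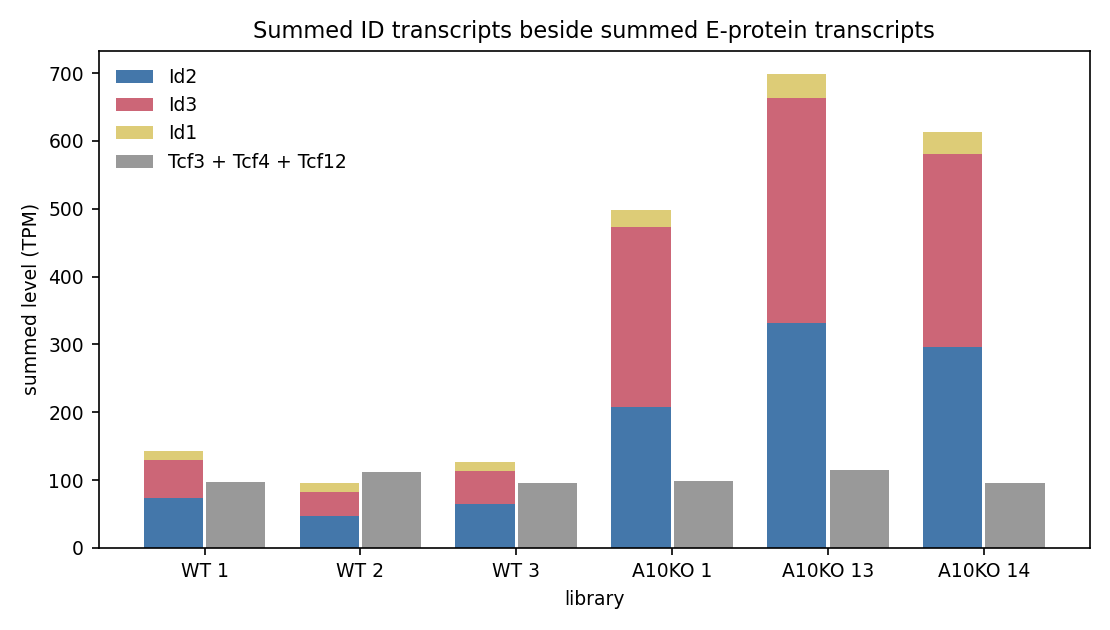
Summed level in TPM of Id1, Id2 and Id3 (stacked bars; Id4 was listed at 0) and of the E-protein genes Tcf3, Tcf4 and Tcf12 (grey bars) in each library. The ID sum is 96.1 to 142.1 TPM in WT and 497.5 to 698.0 TPM in A10KO, whereas the E-protein sum is 95.53 to 115.2 TPM across all 6 libraries. Id1, Id2 and Id3 had been chosen for being higher in A10KO.

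None of the 3 E-protein genes passed the test on its own, by limma over the 12068 genes, and none had an unadjusted p under 0.05. Tcf3 had a log2 change of -0.12 (SE 0.13, adjusted p = 0.806), Tcf12 of 0.15 (SE 0.24, adjusted p = 0.869) and Tcf4 of 0.25 (SE 0.42, adjusted p = 0.881). Of 30 tissue-restricted basic helix-loop-helix genes, whose products pair with E proteins, 29 were under 1 TPM in every library and 19 were listed at 0. The one tested, Tal1, had a log2 change of 0.14 (adjusted p = 0.896). Of 7 genes that ID proteins are known to hold down, Cdkn2a and Cdkn2b were listed at 0 in every library and 4 were tested. Their median log2 change was 0.05, beside -0.04 over all tested genes, and none was called or had an unadjusted p under 0.05. The cell-cycle inhibitor gene Cdkn1a stood at 159.57, 186.3 and 151.92 TPM in WT and 292.59, 144.38 and 109.82 in A10KO, where A10KO 1 lay above and the other A10KO libraries below every WT library (log2 change 0.01, adjusted p = 0.992). Cdkn1b, the next by level, had a log2 change of 0.09 (adjusted p = 0.943).

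Of the BMP pathway around the 7 genes, the ligand genes were all under 1 TPM, and the genes for receptors and SMADs had RNA in both groups with none called. Of the 14 BMP ligand genes, 5 were at 0 in every library, and the highest single value was 0.55 TPM (Gdf7 in A10KO 13). Of 15 genes for secreted BMP antagonists, 3 were tested and 0 called, with a median log2 change of -0.07. Fstl3 (-0.16, adjusted p = 0.83) and Twsg1 (0.30, adjusted p = 0.772) had the highest levels. Nog, which encodes noggin and is itself known to be induced by BMPs, was under the filter, at 0.07, 0.07 and 0.09 TPM in WT and 0.12, 1.89 and 0.34 in A10KO.

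Of 12 genes for BMP receptors and co-receptors, 10 were tested and 0 called, with a median log2 change of -0.07. Eng, a co-receptor gene, stood at 138.93, 107.36 and 133.03 TPM in WT and 112.44, 141.82 and 113.04 in A10KO (log2 change -0.05, adjusted p = 0.948). Neo1, which encodes the receptor neogenin, stood at 14.05, 15.37 and 13.79 TPM in WT and 22.45, 22.30 and 19.50 in A10KO, with no overlap (log2 change 0.54, SE 0.14, adjusted p = 0.339). Without overlap 1 of the 10, Neo1, was higher and 1, Rgmb, was lower (-0.32, adjusted p = 0.691 by limma). Of all tested genes 5.61% were higher and 11.5% lower without overlap. All 16 other SMADs and SMAD regulators were tested and 0 called, with a median log2 change of -0.07. Those with the highest levels were Fkbp1a, whose product binds type I receptors (-0.23, adjusted p = 0.688), and Ppm1a, a phosphatase gene (-0.15, adjusted p = 0.795). Zfp423, which encodes a zinc finger cofactor of BMP-activated SMADs, stood at 2.67, 2.48 and 2.47 TPM in WT and 5.20, 5.56 and 3.98 in A10KO, again with no overlap (0.73, SE 0.20, adjusted p = 0.37). Without overlap 2 of the 16 were higher, Zfp423 and Ctdspl (0.37, adjusted p = 0.564 by limma). Another 2 were lower, Smurf1 (-0.42, adjusted p = 0.652) and Nedd4l (-0.38, adjusted p = 0.584).

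Among other genes known to be induced by BMPs, none was called. Of 24 listed, 16 were under 1 TPM in every library and 7 were tested, of which 2 had a log2 change above 0 and none an unadjusted p under 0.05. Their median log2 change was -0.01. Hes1 stood at 7.31, 5.66 and 8.04 TPM in WT and 8.07, 7.82 and 12.69 in A10KO (0.38, adjusted p = 0.691), and Junb had a log2 change of -0.01 (adjusted p = 0.984). Smad7 (0.06, SE 0.24, adjusted p = 0.953) and Bambi, which encodes a decoy receptor (-0.01, SE 0.21, adjusted p = 0.994), were also among the 7. Of 22 genes known to be induced by TGF-beta, the related ligand that acts through SMAD2 and SMAD3, 12 were tested and 0 called, with a median of -0.08. By limma 3 of the 12 had an unadjusted p under 0.05, all lower in A10KO, beside 6.27% of all tested genes. These 3, Nox4, Col1a1 (-0.88, SE 0.29, adjusted p = 0.471) and Tgif1, were also lower without overlap, beside 11.5% of all tested genes. Higher without overlap were 0 of the 12, beside 5.61%. In that list Nox4, an NADPH oxidase gene, stood at 5.08, 7.06 and 5.65 TPM in WT and 1.35, 1.37 and 2.63 in A10KO, without overlap (-1.34, SE 0.25, adjusted p = 0.193). Bhlhe40 (-0.11, adjusted p = 0.918) and Tgif1 (-0.64, adjusted p = 0.449) had the highest levels.

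Over the 9 lists of pathway genes and partners, 141 genes in all and none of them one of the 7, limma tested 55 and called 0, where 0.0414% of all tested genes were called in either direction. At an unadjusted p under 0.05 there were 2 higher and 3 lower of the 55, beside 8.83% of all tested genes in either direction. The 3 lower ones all came from the TGF-beta list. Groups did not overlap for 3 that were higher and 6 that were lower, beside 5.61% and 11.5% of all tested genes. The log2 changes ran from -1.34 to 0.73, with a median of -0.05. Smad9, Id1, Smad6, Atoh8, Id2 and Id3, at 1.10 to 2.66, all lay above that range, but they had been chosen for being higher.

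**Figure D4:**
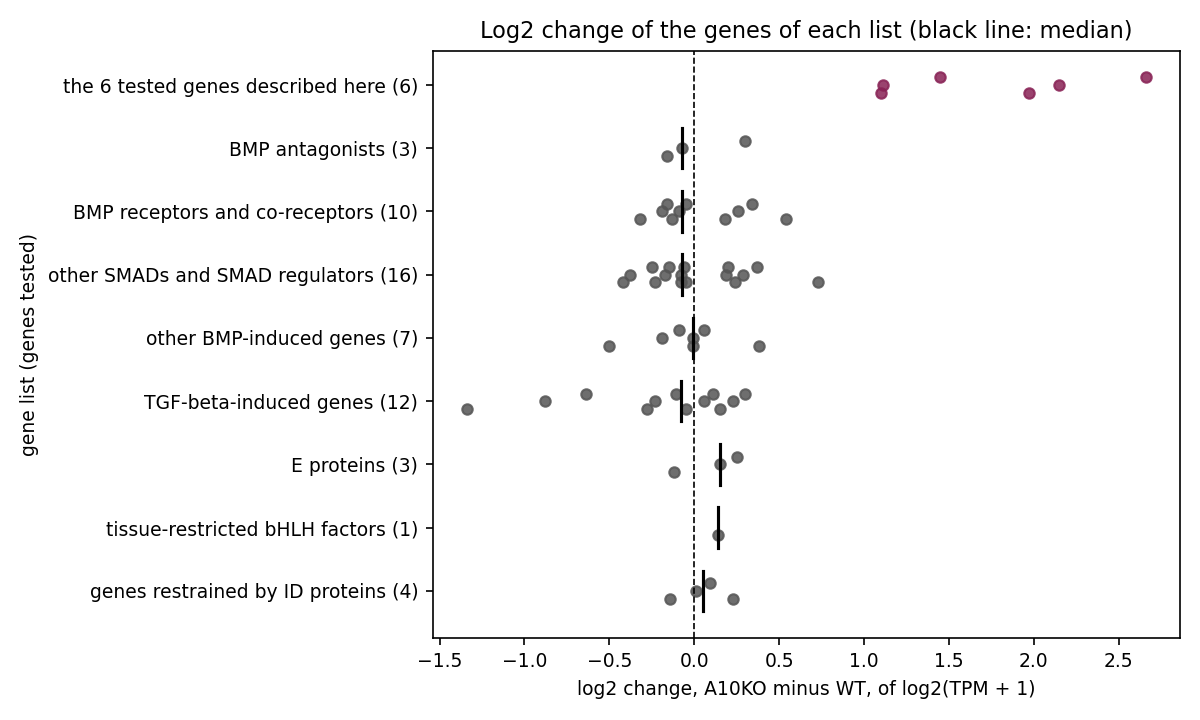
Log2 change of log2(TPM + 1), A10KO minus WT (horizontal axis), for the 6 genes described here and for the tested genes of 8 lists, with the number tested in parentheses and the median as a black line. Medians of the 8 lists lie between -0.08 and 0.15, and the 6 genes, which were chosen for being higher, lie between 1.10 and 2.66. The ligand list has no tested gene.

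Genes beside the 7 on the chromosomes were not called. For the 14 nearest tested protein-coding neighbours, 1 on each side of each gene, the log2 changes ran from -1.28 to 0.51 with a median of -0.17. By limma 0 of the 14 passed the threshold and 3 had an unadjusted p under 0.05, beside 8.83% of all tested genes. Groups did not overlap for 3 of the 14, Bcl2l1 and Rsad2, which were lower in A10KO, and St3gal5, which was higher. Of all tested genes 11.5% were lower and 5.61% higher without overlap. Next to Id3, Rpl11, a ribosomal protein gene, had a log2 change of -0.24 (adjusted p = 0.754) and E2f2, a cell-cycle transcription factor gene, of 0.51 (adjusted p = 0.568). Next to Id2, Kidins220 had a log2 change of -0.24 (adjusted p = 0.817), and Rsad2, an interferon-induced antiviral gene 1345606 bases away, had -1.28 (adjusted p = 0.285). Next to Id1, H13 and Bcl2l1 had -0.32 and -0.38 (adjusted p = 0.689 and 0.503). Smad3, which lies 195082 bases from Smad6, had -0.17 (adjusted p = 0.847), and Lctl, on the other side, 0.35 (adjusted p = 0.809). Alg5 and Rfxap, which flank Smad9 at 4264 and 1858 bases, had -0.35 and -0.17 (adjusted p = 0.711 and 0.86). St3gal5, beside Atoh8, did not overlap between the groups, at 55.43, 51.85 and 56.94 TPM in WT and 91.01, 86.32 and 60.89 in A10KO (0.51, adjusted p = 0.471), and Usp39, on the other side, had 0.04 (adjusted p = 0.943). Dek and Zfp169, the nearest to Id4, had -0.10 and 0.01 (adjusted p = 0.827 and 0.997).

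Within 1 Mb of the 7 genes, limma tested 109 other protein-coding genes and called 0. Of the 109, 11 had an unadjusted p under 0.05, beside 8.83% of all tested genes, and the median log2 change was -0.05, beside -0.04. Groups did not overlap for 8 that were higher and 14 that were lower, beside 5.61% and 11.5% of all tested genes. In the 1 Mb around Id3 the highest value was the 0.51 of E2f2. Around Atoh8 it was 1.45, for the dynein gene Dnah6, at 20.0, 87.79 and 24.92 TPM in A10KO against 10.57, 17.47 and 10.12 in WT. Dnah6 was the one window gene with a log2 change over 1.

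**Figure D5:**
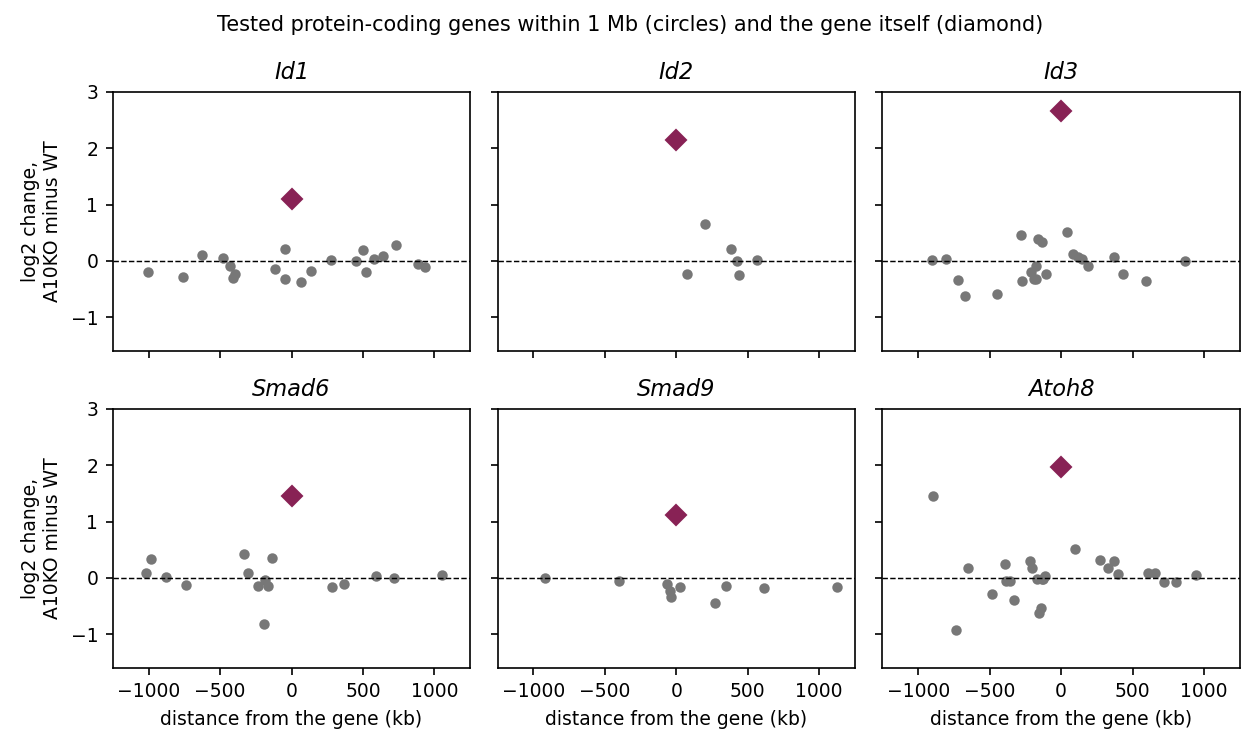
Log2 change, A10KO minus WT (vertical axis), of tested protein-coding genes within 1 Mb of each of the 6 genes (grey circles) and of the gene itself (diamond), by distance between gene centres in kb, positive in the direction of transcription. Each diamond lies above all circles of its panel, the nearest approach being Dnah6 (1.45) to Atoh8 (1.97). The 6 genes had been chosen for being higher, so this gap is not read as a result.

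Id1, Id3, Smad6 and Atoh8 are also known from blood vessel cells, so markers of other cell types were read beside them. Of 15 endothelial markers 11 were under 1 TPM in every library, with Emcn, Cldn5 and Erg at 0 throughout and Cdh5 at 0.01 TPM or less. Their summed level was 40.2 to 53.4 TPM in WT and 45.9 to 71.2 in A10KO. Of the 4 tested none was called. Egfl7, which encodes a protein secreted by vessel cells, had the highest level of the 4 in every WT library, at 19.02, 23.78 and 20.84 TPM, and stood at 19.64, 24.74 and 19.64 in A10KO (log2 change 0.01, adjusted p = 0.993). Tek, a receptor kinase gene, did not overlap between the groups, at 8.20, 15.77 and 7.32 TPM in WT and 19.33, 37.49 and 28.75 in A10KO (log2 change 1.39, SE 0.33, adjusted p = 0.297). Vwf, a clotting protein gene, overlapped, at 5.96, 7.08 and 8.62 TPM in WT and 1.96, 0.59 and 6.2 in A10KO (-1.33, SE 0.50, adjusted p = 0.521). Plvap, at 6.92, 5.79 and 6.85 TPM in WT and 4.43, 8.1 and 8.21 in A10KO, had a log2 change of 0.04 (adjusted p = 0.974). Of these 4 markers Tek alone was higher in A10KO without overlap. Of the fibroblast, leukocyte and keratinocyte markers, 6 of 8, 8 of 10 and 7 of 7 were under 1 TPM in every library. Their summed levels were 3.15 to 3.45, 3.61 to 6.73 and 0.17 to 0.35 TPM in WT and 0.92 to 3.13, 1.24 to 3.14 and 0.01 to 0.33 TPM in A10KO. Lum, a fibroblast marker, Tyrobp, Itgam, Adgre1 and Cd3e of leukocytes, and Krt1, Krt10, Epcam and Trp63 of keratinocytes were at 0 in all 6 libraries. Of the leukocyte markers only Cd68 was tested, at 2.42, 4.7 and 4.8 TPM in WT and 1.29, 0.89 and 0.86 in A10KO. It did not overlap (log2 change -1.27, adjusted p = 0.247 by limma). Of the fibroblast markers only Col1a1 was tested, and it was also lower without overlap (-0.88, adjusted p = 0.471). In bulk RNA, fewer cells of a type and less RNA per cell cannot be told apart.

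Id1 and Id3 are also known as genes that respond fast to serum, and 18 other immediate early genes were listed. Of these 14 were tested, limma called 0, and 4 had an unadjusted p under 0.05, all lower in A10KO, beside 6.27% of all tested genes that were lower and 8.83% in either direction. Their median log2 change was -0.44, and their summed level was 239.3 to 354.9 TPM in WT and 190.6 to 215.3 in A10KO. Of the 14, 0 were higher and 5 lower in A10KO without overlap, beside 5.61% and 11.5% of all tested genes. Their part in the levels of the 7 genes was not tested. With mitochondrial transcripts removed and TPM rescaled, the ratio of the summed ID level in A10KO to that in WT was 5.22, and as deposited it was 4.56 without A10KO 13.

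The genes whose pattern over the 6 libraries was most like that of the 6 were ranked by Pearson r with the mean z-score of the 6, among 150 named genes averaging 5 TPM or more and with a log2 change of at least 1 in size. The 6 libraries form 2 groups, so r mainly orders genes by how cleanly these are apart, and it is given as a description. Tspan7, a tetraspanin gene, was closest (r = 0.980), at 9.24, 10.26 and 9.22 TPM in WT and 19.53, 20.68 and 24.84 in A10KO. Ramp3, which encodes a receptor activity-modifying protein, followed (r = 0.911), at 3.19, 3.89 and 2.67 TPM in WT and 9.36, 12.41 and 7.13 in A10KO. Car6, a carbonic anhydrase gene (r = 0.905), stood at 27.74, 28.82 and 27.38 TPM in WT and 47.34, 97.69 and 68.42 in A10KO. The next were Zfp808 (r = 0.895), Slc2a12 (r = 0.870) and Tmem179 (r = 0.838). By limma, adjusted p of these 6 genes ran from 0.125 to 0.373, so none was called.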

How the data were processed

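RNA was measured by sequencing in 3 WT and 3 A10KO libraries of B16F10. The deposited values are TPM, as read from the values themselves: they carry decimals, and the columns sum to similar totals, although the table is presented as counts. The 5th percentile of genes' lowest nonzero value was 0.04 in the shortest quartile of genes by exon length and 0.01 in the longest, while the median was 0.21 and 5.87. The submitters' processing notes name fastp, HISAT and RSEM and the build GRCm38.p5. Of tool versions, roles, annotation and strand setting, the sources used here give nothing. Each library's own table held the values of the series table in 6 of 6 cases. TPM keeps no depth, so no counting interval is given.

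Genes that reached 1 TPM in 3 or more libraries were tested with limma 3.58.1 (R 4.3.3) with a mean-variance trend on log2(TPM + 1), and p-values were adjusted over all 12068 genes by the Benjamini-Hochberg method. The fit was tested on simulated data whose noise in every library was drawn from the SD of the WT libraries. The spread among the A10KO libraries was therefore not part of that test. SDs are over the 3 libraries of a group. The 7 genes and all lists were chosen with earlier results of these data known. From each pathway list the text names the 2 tested genes with the highest mean (all 3 E proteins), and any called gene, and it names the nearest tested neighbours on each side and the 6 genes most like the members by Pearson r. Smad1, Smad5, Smad7, Bambi, Nog, Gdf7, Rgmb, Zfp423, Ctdspl, Smurf1, Nedd4l, Nox4, Col1a1, Cd68, Tek, Egfl7, Vwf, Plvap and Dnah6 were named after their values were seen. Coordinates are from GENCODE M21 (GRCm38), and promoters are from RefSeq (GRCm38.p6). Alternatives were other pseudocounts, filters and scalings, array quality weights, and leaving out each library in turn with the tested genes kept.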

Additional observations from a re-analysis of the deposited data

How the results depend on the processing

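The 6 genes, which were chosen for being higher, stayed higher in A10KO under all alternatives that tested them. Their groups did not overlap, so another pseudocount or filter, or a library left out, could not have reversed the direction. Log2 changes ran from 2.47 to 2.81 for Id3, 1.97 to 2.34 for Id2, 1.67 to 2.18 for Atoh8, 1.05 to 1.72 for Smad6, 0.92 to 1.24 for Id1 and 0.49 to 1.59 for Smad9, which a filter at 5 TPM left untested. The extremes of Smad9 came with pseudocounts of 0.1 (1.59) and 5 (0.49), and the lowest value of Smad6 (1.05) with a pseudocount of 5. Without WT replicate 2 the Id3 change was 2.47, and leaving out single libraries gave 2.47 to 2.81. The ratio of ID to E-protein transcripts, A10KO over WT, was 4.78, and 4.17 to 5.33 with a library left out. The summed ID ratio was 5.05 with median-of-ratios scaling and 5.22 without mitochondrial transcripts.

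Limma called 2 genes higher and 3 lower. It called 1 higher with no filter and 1 with quantile normalization, and 9 higher and 16 lower with array quality weights. With a library left out, 1 to 2 were higher and 1 to 6 lower. Id3 was called each time. Id2 was not called with no filter, under quantile normalization or without WT replicate 1, 2 or 3 or A10KO replicate 13 or 14. With array quality weights 4 of the 6 tested were called, Id1 and Smad6 besides Id2 and Id3, where 9 of 12068 genes were called higher. These weights were uneven, from 0.218 for A10KO 13 and 0.4 for A10KO 1 to 6.98 for WT 3. Of the genes in the 9 pathway lists, 0 were called by limma under any alternative. No paired analysis was possible because the groups share only replicate number 1.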
